A study of Mus musculus with 17 samples.

Results

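The P4 population of the mouse mammary gland, a basal cell fraction enriched for mammary stem cells, was profiled by RNA sequencing after Cxcl12 had been deleted in the neighbouring luminal cells. It is represented by 2 of the 17 libraries of the study, 1 from a mouse or mice of genotype K8Cre+, Cxcl12fl/fl (knockout) and 1 from K8Cre+ mice (control, titled wild type). K8-Cre is driven by the promoter of keratin 8, a luminal keratin, so the deletion is placed in luminal cells and not in the basal cells that were sequenced. Both libraries came from virgin mice, whose age, strain and number are not given in the labels, and both carry the Cre transgene. Cells were sorted as negative for lineage markers, positive for CD24 and high for CD29 (Lin-CD24+CD29hi). CD29 is the integrin encoded by Itgb1. The markers removed as lineage are not listed in the labels. The question addressed is what basal cells transcribe when their luminal neighbours cannot make CXCL12.

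The comparison was drawn over 25779 named genes, after 805 small noncoding RNA entries had been left out by the prefix of their symbol. These are small nucleolar, spliceosomal, 7SK/7SL, Y and microRNA genes. The values are FPKM, fragments scaled by transcript length and library depth, rescaled so that the genes kept sum to 1000000 in each library. A log2 ratio is log2((knockout + 1)/(control + 1)) on this scale. With 1 library on each side there is no replicate, so every difference below is a difference between 2 libraries and carries no error and no test. "Higher" and "lower" describe the knockout library relative to the control library, and a call means a difference of at least 2-fold.

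Basal cells form the outer layer of the mammary duct. They are contractile, rest on a basement membrane that they help to make, and include the cells that can regenerate a gland on transplantation. CXCL12 is a chemokine that acts through the receptor CXCR4, which signals through inhibitory G proteins, and is bound and cleared by ACKR3. In the mammary gland, basal cells receive signals from luminal cells, fibroblasts and macrophages, including Wnt, Notch, ErbB and TGF-beta ligands, and they secrete chemokines that recruit leukocytes.

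The 2 libraries differed in depth. From the steps between the lowest values, the deposited FPKM rested on about 17.9 M fragments in the knockout library and 30.1 M in the control library. A transcript of 2 kb at 10 rescaled FPKM corresponded to about 122 fragments in the knockout and 205 in the control library. Genes listed at 0 numbered 10809 in the knockout and 10186 in the control library, and some of these are genes that nearly every cell uses. For example, the respiratory chain gene Ndufb2 was listed at 0 in the knockout and at 43.2 rescaled FPKM in the control library, and the autophagy gene Gabarap had 97.7 rescaled FPKM in the knockout and was listed at 0 in the control library. An exact 0 is therefore given as listed at 0, with no fold. Small noncoding entries took 97.4% of the FPKM sum in the knockout and 98.6% in the control library, and keeping them in the scaling moves every log2 ratio up by 0.99, before the prior is added. All differences below are relative to the genes kept. Some very short entries with other symbols remain among these. For example, AF357425, with a longest transcript of 73 bases, was the highest gene of the control library. It had 9811 rescaled FPKM in the knockout and 13204 in the control library. For scale, 21.4% of genes lay at least 2-fold apart between the P4 libraries. Between 2 libraries of the same group of macrophages elsewhere in the study, processed into another unit, that share ran from 17.8% to 59.6%.

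The sort was checked against markers of basal and of other cell types. All 12 basal markers were high and none differed by 2-fold. They ranged from 219 to 13239.5 rescaled FPKM in the knockout and from 350.3 to 8695 in the control library, and summed to 26962 in the knockout and 22232 in the control library. The smooth muscle actin gene Acta2, the highest gene of the knockout library, had 13239.5 rescaled FPKM in knockout and 8695 in control cells (log2 ratio 0.61). Of the basal keratin genes, Krt5 had 1329.8 rescaled FPKM in knockout and 1285 in control cells (log2 ratio 0.05) and Krt14 had 1375 rescaled FPKM in knockout and 1653 in control cells (log2 ratio -0.27). Of the sort markers, Cd24a had 805 rescaled FPKM in knockout and 606 in control cells (log2 ratio 0.41) and Itgb1 had 978 rescaled FPKM in knockout and 1317 in control cells (log2 ratio -0.43).

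Markers of 8 other cell types were mostly at lower levels, and the sum was higher in the knockout library for all 8. The adipocyte and erythroid sums were under 10 rescaled FPKM in both libraries. Of the 47 markers of other cell types, 6 in the knockout and 2 in the control library exceeded the lowest basal marker, Trp63. Trp63 itself had 219 rescaled FPKM in knockout and 350.3 in control cells, so the 2 counts are not at the same cutoff. The 6 fibroblast markers summed to 1412 rescaled FPKM in the knockout and 857 in the control library, led by the proteoglycan gene Dcn at 592 rescaled FPKM in knockout and 427 in control cells (log2 ratio 0.47). The 12 luminal markers summed to 1516 in knockout and 1210.1 rescaled FPKM in control cells, and 3 of them were called higher (Krt19, Elf5 and Cd14) and 1 lower (Foxa1). Macrophage markers were low throughout. Their 9 genes summed to 87.9 rescaled FPKM in knockout and 55.4 in control cells, most of it from Lyz2, while the CSF1 receptor gene Csf1r had 3.16 rescaled FPKM in knockout and 1.63 in control cells. The 3 pericyte markers summed to 86.3 rescaled FPKM in knockout and 52.1 in control cells. Of these, Rgs5 was higher, with 68.5 rescaled FPKM in knockout and 26.05 in control cells (log2 ratio 1.36), while Cspg4 had 5.19 rescaled FPKM in knockout and 11.3 in control cells (log2 ratio -0.99) and Pdgfrb had 12.6 rescaled FPKM in knockout and 14.7 in control cells (log2 ratio -0.21). The 3 erythroid markers summed to 9.66 rescaled FPKM in knockout and 4.71 in control cells. Their globin genes lay in opposite directions, Beta-s with 8.26 rescaled FPKM in knockout and 0.0978 in control cells and Hba-a1 with 1.40 and 4.61. The 6 endothelial markers summed to 38.4 rescaled FPKM in knockout and 20.3 in control cells, where Pecam1 was higher in the knockout library while Emcn and Cldn5 were listed at 0 there. The 5 leukocyte markers summed to 14.7 rescaled FPKM in knockout and 5.28 in control cells, and the pan-leukocyte gene Ptprc had 12.4 rescaled FPKM in knockout and 1.78 in control cells (log2 ratio 2.27). The 3 adipocyte markers summed to 0.542 rescaled FPKM in knockout and 0.0592 in control cells, and Adipoq was listed at 0 in both libraries. Sums of longer lists were not higher throughout. General luminal genes summed to 2718 in knockout and 2846 in control cells, and erythroid and platelet genes to 13.96 and 17.2. Hormone-sensing luminal genes lay the other way in sum, at 1019 and 732, as did the sums of the longer lists of the remaining cell types. Single members of these lists lay on both sides. Of 14 hormone-sensing genes, 3 were called higher and 3 lower, with a median log2 ratio of -0.10. Of 16 endothelial genes, 4 were called higher and 5 lower, with a median of 0.10. In bulk RNA, fewer cells of a type and less RNA per cell cannot be told apart, and the part of these cell types in the differences below was not tested.

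**Figure D1:**
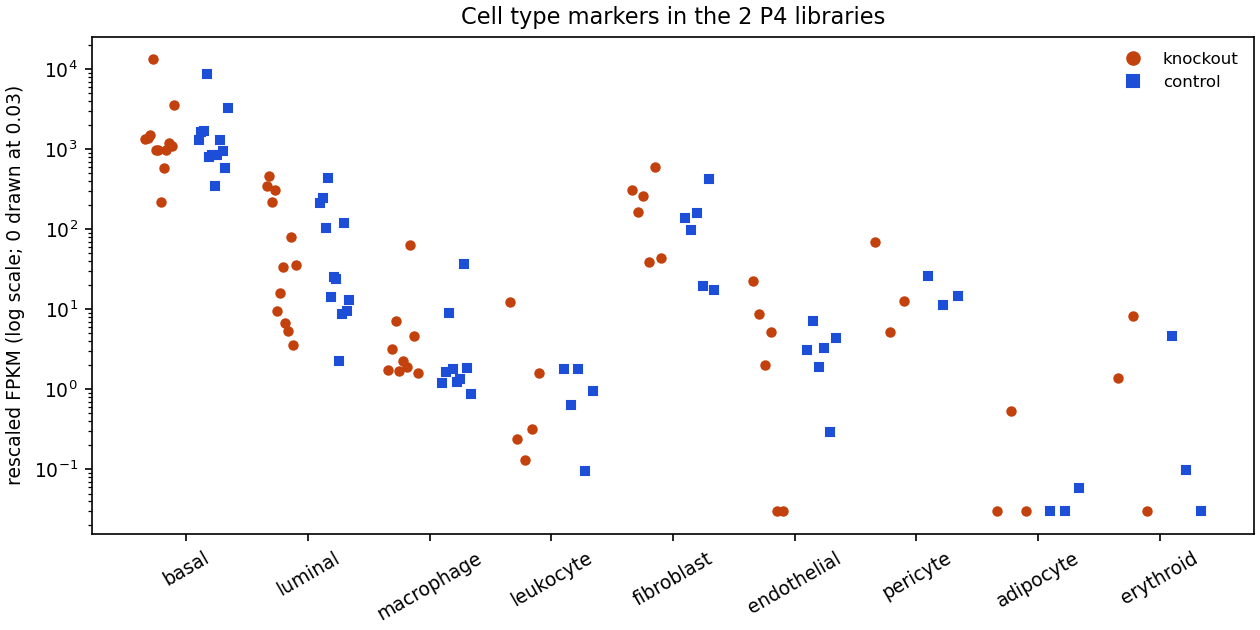
Levels of the cell type markers (rescaled FPKM, log scale) in the knockout library (circles, left of each pair) and in the control library (squares, right), 1 point per gene, with genes listed at 0 drawn at 0.03. The 12 basal markers lie above 200 in both libraries, and the 9 macrophage markers all lie under 100.

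The ligand and its receptors were all transcribed in the basal cells themselves. Cxcl12 (chromosome 6, 117168535 to 117181368, GRCm38) had 1021 rescaled FPKM in knockout and 795 in control cells (log2 ratio 0.36). These libraries therefore do not check the luminal deletion, since the sorted basal cells are not those in which K8-Cre is placed. Its signalling receptor gene Cxcr4 (chromosome 1, 128588199 to 128592299) was lower by just under 2-fold, with 104 rescaled FPKM in knockout and 199.7 in control cells (log2 ratio -0.94), and stood at a log2 ratio of 0.0339 when small noncoding genes were kept in the scaling. The scavenging receptor gene Ackr3, listed under its older name Cxcr7 (chromosome 1, 90204003 to 90216288), was higher, with 698 rescaled FPKM in knockout and 319 in control cells (log2 ratio 1.13). The pair of receptors thus differed in opposite directions between these libraries on the scale without small noncoding genes.

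Of 19 genes of the CXCL12 pathway at 1 rescaled FPKM or more, 2 were called higher and 1 lower, with a median log2 ratio of 0.03. Over all genes of that level, 16.9% were called higher and 14.9% lower, and the counts of each list below are read against these shares. Rgs16, which switches G protein signals off, had 57.2 rescaled FPKM in knockout and 24.5 in control cells (log2 ratio 1.19). Among the inhibitory G protein subunits, Gnai1 had 32.2 rescaled FPKM in knockout and 99.1 in control cells (log2 ratio -1.59) and Gnai3 had 128 rescaled FPKM in knockout and 223 in control cells (log2 ratio -0.79), while the most abundant, Gnai2, had 442 rescaled FPKM in knockout and 326 in control cells (log2 ratio 0.44). The G protein-coupled receptor kinase gene Grk5 stood at 16.2 rescaled FPKM in knockout and 24.9 in control cells (log2 ratio -0.59). The arrestin gene Arrb1 had 130.1 rescaled FPKM in knockout and 183 in control cells (log2 ratio -0.49), and the alternative CXCR4 ligand gene Mif had 227 rescaled FPKM in knockout and 201 in control cells (log2 ratio 0.17).

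Over all genes of at least 10 rescaled FPKM in the higher library, 1305 of 10192 (12.8%) were called higher and 871 (8.55%) lower, and the median log2 ratio was -0.01. With small noncoding genes kept in the scaling, the counts were 203 higher and 8 lower. The minimum of 10 was then applied on that scale, where fewer genes reach it, so these counts are not out of the 10192. Of the 1305 and 871 genes called without them, 136 of the higher were listed at 0 in the control and 99 of the lower at 0 in the knockout library. The largest log2 ratios by the naming rule fall mostly among these zeros: Surf2, Tmub2, Rpain and Anapc13 were listed at 0 in the control library, and Ost4, Lsmd1 and Ndufb2 at 0 in the knockout library. The share of genes called was 38.7% at 10 to 20 rescaled FPKM and between 8.60% and 9.65% in each of 3 classes of 100 or more. By length of the longest annotated transcript it was 47.1% up to 500 bases and 8.64% above 8000 bases. The median log2 ratio also differed with length, 0.46 for the shortest class and -0.09 for the longest, so the medians of lists below stand beside a like-length median, which is that of all genes in the length class of the list's median transcript.

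**Figure D2:**
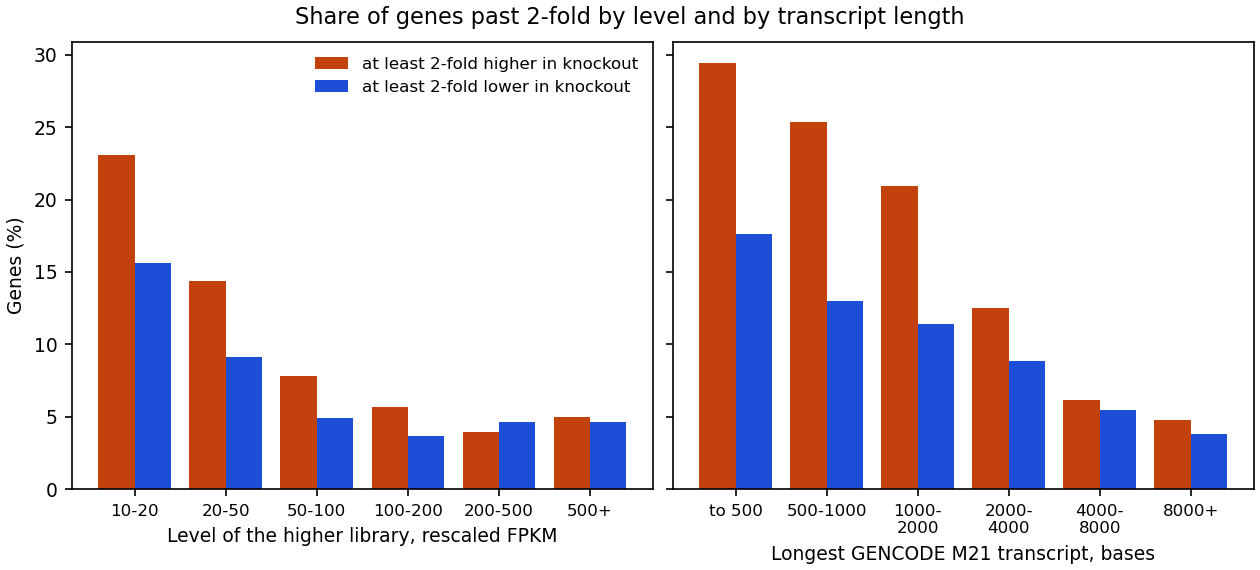
Share of genes (%) at least 2-fold higher (left bar) or lower (right bar) in the knockout library, among genes of at least 10 rescaled FPKM, by level of the higher library (left panel) and by length of the longest GENCODE M21 transcript in bases (right panel). Both shares are largest in the lowest level class and in the shortest transcripts, with 23.1% higher and 15.6% lower at 10 to 20 rescaled FPKM.

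Among the 2256 genes of at least 100 rescaled FPKM that were above 0 in both libraries, where a difference rests on the most fragments, 104 (4.61%) were called higher and 85 (3.77%) lower. The higher genes with the largest log2 ratios included nuclear noncoding RNAs, chemokines, complement and secreted proteins. Others were of unlike kinds, such as the respiratory chain genes Uqcrq and Ndufc1, Nme2 and Rabac1. Several have short transcripts, among them S100a4 (498 bases), Ccl7 (801) and Cst3 (860). Among genes of at least 10 rescaled FPKM, calls were more frequent in short transcripts, as given above. S100a4, a calcium-binding protein of motile and mesenchymal cells, had 102 rescaled FPKM in knockout and 5.62 in control cells (log2 ratio 3.96). The B cell-attracting chemokine gene Cxcl13 had 259 rescaled FPKM in knockout and 25.8 in control cells (log2 ratio 3.27). Clusterin, a secreted chaperone encoded by Clu, had 434 rescaled FPKM in knockout and 118 in control cells (log2 ratio 1.87), and the protease inhibitor gene Cst3 had 437 rescaled FPKM in knockout and 126 in control cells (log2 ratio 1.78). The complement gene C4b had 341 rescaled FPKM in knockout and 107 in control cells (log2 ratio 1.66), and Tnfaip6, whose product binds hyaluronan at sites of inflammation, had 269.9 rescaled FPKM in knockout and 88.04 in control cells (log2 ratio 1.60).

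The lower genes at this level included epithelial and matrix genes. Krt15, a keratin of basal cells, had 219 rescaled FPKM in knockout and 954 in control cells (log2 ratio -2.12). Igfbp3, which binds insulin-like growth factors outside the cell, was the most abundant of the 85 in the control library, with 660.3 rescaled FPKM in knockout and 2504 in control cells (log2 ratio -1.92). Efhd2, a calcium-binding actin regulator, had 138 rescaled FPKM in knockout and 548 in control cells (log2 ratio -1.98). The cell-surface proteoglycan gene Sdc1 had 263 rescaled FPKM in knockout and 830.3 in control cells (log2 ratio -1.66), the interleukin-1 receptor accessory gene Il1rap had 60.2 rescaled FPKM in knockout and 200.4 in control cells (log2 ratio -1.72), and the secreted guidance glycoprotein gene Reln had 95.6 rescaled FPKM in knockout and 287 in control cells (log2 ratio -1.57). In all 6 the control library was at least 2-fold above the knockout library.

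**Figure D3:**
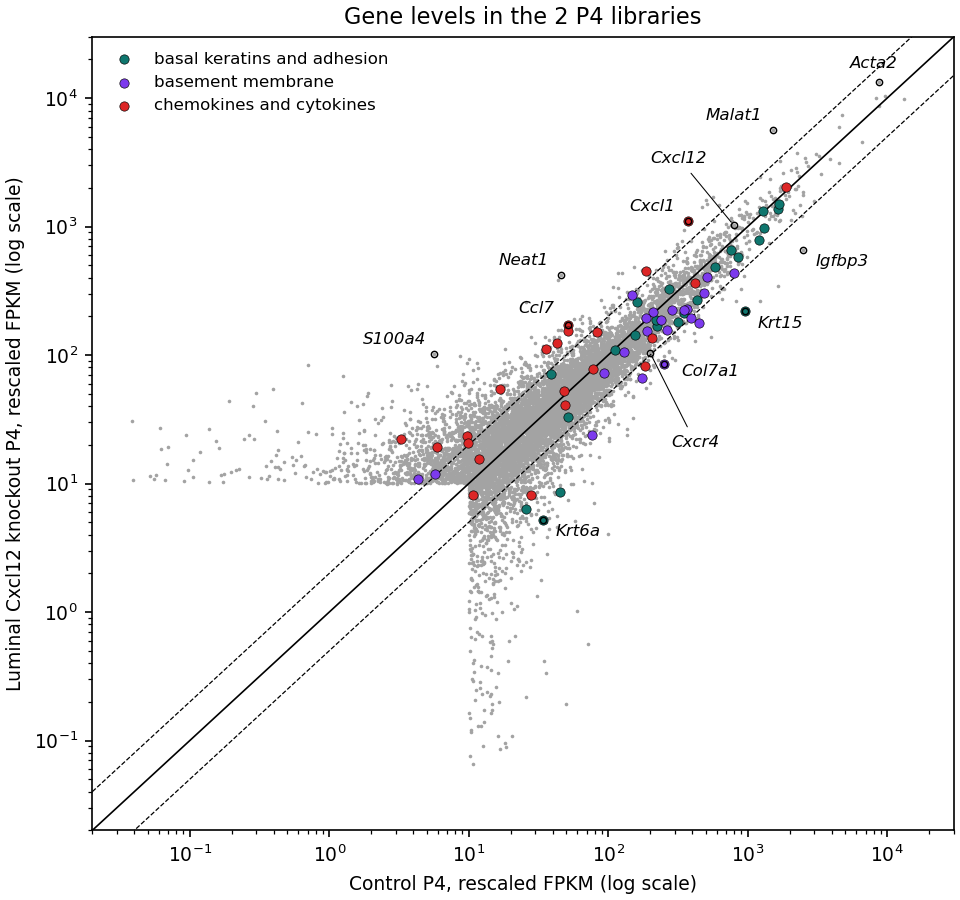
Level of each of 9957 genes of at least 10 rescaled FPKM in the higher library and above 0 in both, in the knockout library (vertical axis, log scale) against the control library (horizontal axis, log scale). The solid line marks equal levels and the dashed lines 2-fold. Of the 23 genes of the keratin and adhesion list, 4 lie above the equal line.

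Among keratins and adhesion molecules of basal cells, Krt5, Krt14 and Krt17 were within 2-fold and Krt15, Krt6a and Krt16 were called lower. Of 23 genes, none was called higher and 4 (17.4%) were called lower, close to the 14.9% over all genes, and the median log2 ratio was -0.41 (like-length median -0.06). The fourth called gene was Dsg3. Krt6a and Krt16 encode the keratin pair that epithelia switch on in wounding, and Dsg3 a desmosomal cadherin. Krt6a had 5.24 rescaled FPKM in knockout and 34.3 in control cells (log2 ratio -2.50) and Krt16 had 8.65 rescaled FPKM in knockout and 45.3 in control cells (log2 ratio -2.26). Dsg3 had 6.33 rescaled FPKM in knockout and 25.5 in control cells (log2 ratio -1.86), while the partner desmosomal gene Dsc3 differed the other way, with 71.1 rescaled FPKM in knockout and 38.9 in control cells (log2 ratio 0.85). The integrin alpha-6 gene Itga6, which joins basal cells to laminin, had 578 rescaled FPKM in knockout and 846 in control cells (log2 ratio -0.55). The cytolinker gene Dst, which anchors keratin at hemidesmosomes, had 257 rescaled FPKM in knockout and 160.2 in control cells (log2 ratio 0.68). The P-cadherin gene Cdh3 stood at 327 rescaled FPKM in knockout and 271 in control cells (log2 ratio 0.27).

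Of 21 contractile and filament genes, 3 (14.3%) were called higher, under the 16.9% over all genes, and none lower. The median log2 ratio was 0.33 (like-length median 0.02), and 16 members were above 0. The intermediate filament gene Vim, typical of mesenchymal cells and also found in basal cells, had 1420.0 rescaled FPKM in knockout and 468 in control cells (log2 ratio 1.60). The muscle filament gene Des had 28.3 rescaled FPKM in knockout and 9.70 in control cells (log2 ratio 1.45) and the tropomyosin gene Tpm2 had 106 rescaled FPKM in knockout and 50.5 in control cells (log2 ratio 1.05). Calponin, encoded by Cnn1, had 1109 rescaled FPKM in knockout and 576 in control cells (log2 ratio 0.94). The other members were within 2-fold on either side. The oxytocin receptor gene Oxtr had 1185 rescaled FPKM in knockout and 946 in control cells (log2 ratio 0.33) and the myosin light chain gene Myl9 had 782 rescaled FPKM in knockout and 544 in control cells (log2 ratio 0.52). Tagln, a smooth muscle actin-binding protein, had 3517 rescaled FPKM in knockout and 3232 in control cells (log2 ratio 0.12), Actg2, an enteric smooth muscle actin, had 416 rescaled FPKM in knockout and 421 in control cells (log2 ratio -0.02), and the actin crosslinker gene Actn1 had 370.1 rescaled FPKM in knockout and 487 in control cells (log2 ratio -0.39). Vim and Des are also genes of fibroblasts and pericytes. The fibroblast marker sum was higher in the knockout library as given above, and of the 3 pericyte markers only Rgs5 was. In a longer list of pericyte and smooth muscle genes, 5 of 9 (55.6%) were called higher and none lower. The shares over all genes were 16.9% and 14.9%, and that list's median log2 ratio was 1.10 (like-length median -0.06). The part of these cells was not tested.

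**Figure D4:**
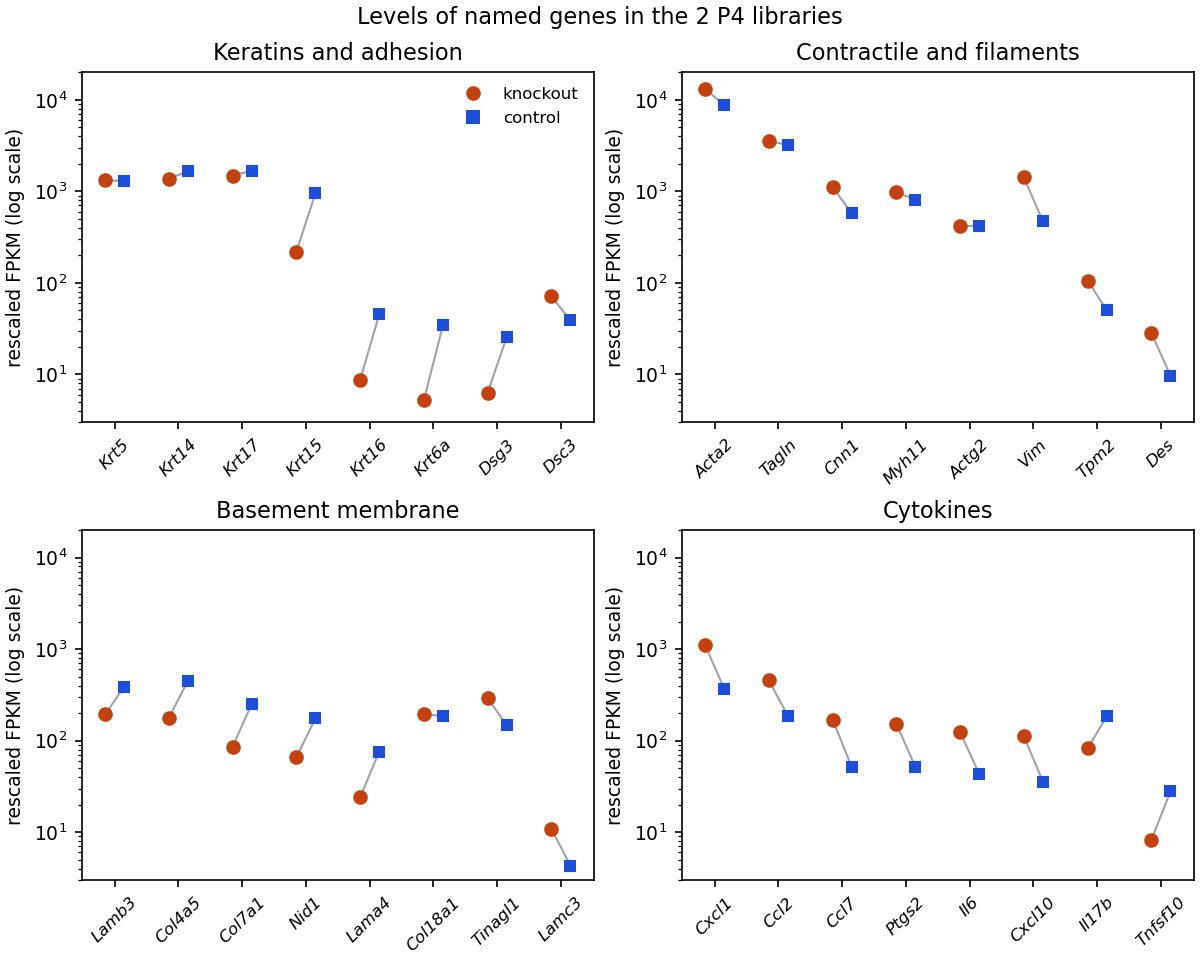
Levels (rescaled FPKM, log scale) of 8 genes in each of 4 groups, in the knockout library (circles, left of each pair) and in the control library (squares, right). Krt15, Krt16, Krt6a and Dsg3 lie lower in the knockout library while Krt5 lies near the same level, and 6 of the 8 cytokine genes lie higher.

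Regulators of mammary stem and basal cells showed no common direction. Of 29 genes, 3 were called higher and 3 lower (10.3% each), and the median log2 ratio was -0.05 (like-length median -0.06). Trp63, the p63 transcription factor that basal epithelium depends on, was lower without reaching 2-fold, with 219 rescaled FPKM in knockout and 350.3 in control cells (log2 ratio -0.67). The transcription factor genes Sox9 and Sox10 lay close to it, Sox9 with 282 rescaled FPKM in knockout and 442 in control cells (log2 ratio -0.64) and Sox10 with 65.5 rescaled FPKM in knockout and 104 in control cells (log2 ratio -0.65). Bcl11b, a regulator of basal identity, had 9.59 rescaled FPKM in knockout and 33.9 in control cells (log2 ratio -1.72). Snai2, a regulator of the epithelial to mesenchymal transition, had 274 rescaled FPKM in knockout and 331 in control cells (log2 ratio -0.27).

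Receptors and surface markers in this list lay on both sides of 0. Among those below 0 within 2-fold were Lgr6 (log2 ratio -0.09), Egfr (log2 ratio -0.12) and Vangl2 (log2 ratio -0.29). The genes described next were level or higher. Lgr5, an R-spondin receptor that marks stem cells of several epithelia, had 205 rescaled FPKM in knockout and 168 in control cells (log2 ratio 0.29), and Lgr4 had 256 rescaled FPKM in knockout and 239.9 in control cells (log2 ratio 0.09). Procr, the protein C receptor that marks a basal stem cell fraction in mouse, had 23.7 rescaled FPKM in knockout and 12.4 in control cells (log2 ratio 0.89). Tspan8, a tetraspanin, had 45.03 rescaled FPKM in knockout and 30.7 in control cells (log2 ratio 0.54). Nrp2, a semaphorin and VEGF-C co-receptor, had 29.4 rescaled FPKM in knockout and 13.98 in control cells (log2 ratio 1.02). The called genes Twist1, Gng11 and Zeb1 were under 10 rescaled FPKM in both libraries.

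Most basement membrane genes had log2 ratios below 0. Of 24 genes, 3 (12.5%) were called higher and 5 (20.8%) lower, against 16.9% and 14.9% over all genes. Only 7 had a log2 ratio above 0, and the median was -0.35 (like-length median -0.06). The anchoring fibril collagen gene Col7a1 had 85.9 rescaled FPKM in knockout and 252 in control cells (log2 ratio -1.54). Of the type IV collagen genes, Col4a5 had 178 rescaled FPKM in knockout and 451 in control cells (log2 ratio -1.34) and the most abundant, Col4a1, had 434 rescaled FPKM in knockout and 799.7 in control cells (log2 ratio -0.88), with Col4a2 and Col4a6 also below 0 within 2-fold. Col4a4 was called higher at a low level, with 2.72 rescaled FPKM in knockout and 0.757 in control cells (log2 ratio 1.08). Nidogen-1, the linker between laminin and collagen IV encoded by Nid1, had 66.1 rescaled FPKM in knockout and 175 in control cells (log2 ratio -1.39). The laminin chain genes Lamb3 and Lama3 were lower by different amounts, Lamb3 with 193 rescaled FPKM in knockout and 390.1 in control cells (log2 ratio -1.01) and Lama3 with 188 rescaled FPKM in knockout and 238 in control cells (log2 ratio -0.34). Lama4, a laminin chain of vessels and other mesenchyme, had 24.00 rescaled FPKM in knockout and 75.9 in control cells (log2 ratio -1.62). Abundant members above 0 were Col18a1, with 195 rescaled FPKM in knockout and 186 in control cells (log2 ratio 0.07), Hspg2, the perlecan gene, with 216 rescaled FPKM in knockout and 211 in control cells (log2 ratio 0.03), and Tinagl1, a secreted basement membrane protein, with 292 rescaled FPKM in knockout and 148 in control cells (log2 ratio 0.98).

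Of 30 interstitial matrix and protease genes, 6 (20%) were called higher, near the 16.9% over all genes, and 2 (6.67%) lower, with a median log2 ratio of 0.16 (like-length median 0.02). The abundant matrix genes Sparc and Postn were near level, Sparc with 2951 rescaled FPKM in knockout and 2720.3 in control cells (log2 ratio 0.12) and Postn with 1760.0 rescaled FPKM in knockout and 1844 in control cells (log2 ratio -0.07). The called members were at lower levels. Fibronectin, Fn1, had 100.3 rescaled FPKM in knockout and 44.4 in control cells (log2 ratio 1.16), and the stromelysin gene Mmp3 had 45.9 rescaled FPKM in knockout and 16.8 in control cells (log2 ratio 1.39). The matricellular gene Thbs2 had 38.5 rescaled FPKM in knockout and 12.6 in control cells (log2 ratio 1.54). In the fibroblast list, 7 of 23 genes (30.4%) were called higher and 1 (4.35%) lower, with a median of 0.62 (like-length median -0.06). It held the collagen genes Col1a1, with 311 rescaled FPKM in knockout and 137 in control cells (log2 ratio 1.17), and Col6a2, with 67.4 rescaled FPKM in knockout and 25.3 in control cells (log2 ratio 1.38). Not all fibroblast genes lay that way: the fibulin gene Fbln2 had 108 rescaled FPKM in knockout and 271 in control cells (log2 ratio -1.32), and Gsn stood at 568 rescaled FPKM in knockout and 541 in control cells (log2 ratio 0.07).

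Of the signals exchanged between epithelial layers, Notch receptors and ligands gave 2 higher and 1 lower call among 9 genes. The ligand gene Jag1 was lower, with 275 rescaled FPKM in knockout and 649 in control cells (log2 ratio -1.23), while Dll1, the more abundant ligand in the knockout library, was level, with 475 rescaled FPKM in knockout and 459 in control cells (log2 ratio 0.05). The receptor gene Notch1 had 32.01 rescaled FPKM in knockout and 48.4 in control cells (log2 ratio -0.58) and Notch3, which pericytes also use, had 26.9 rescaled FPKM in knockout and 10.6 in control cells (log2 ratio 1.26). Among the Notch targets and modifiers, 2 of 22 genes were called higher and 3 lower, with a median log2 ratio of -0.09 (like-length median 0.02). The target gene Hey1 had 18.7 rescaled FPKM in knockout and 44.5 in control cells (log2 ratio -1.21) and the Notch inhibitor gene Numb had 15.6 rescaled FPKM in knockout and 43.4 in control cells (log2 ratio -1.42). The feedback gene Nrarp had 24.9 rescaled FPKM in knockout and 6.64 in control cells (log2 ratio 1.76).

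Wnt ligand genes, listed together with the R-spondin genes, were split. Of 12 genes, 1 was called higher and 4 lower. Of the lower, Wnt4 and Rspo2 were under 10 rescaled FPKM in both libraries. Wnt4 had 0.125 rescaled FPKM in knockout and 2.62 in control cells, and Rspo2 was listed at 0 in knockout and had 2.22 in control cells. Wnt10a had 20.8 rescaled FPKM in knockout and 74.5 in control cells (log2 ratio -1.79) and Wnt5b had 17.5 rescaled FPKM in knockout and 37.3 in control cells (log2 ratio -1.05), while Wnt9a had 25.3 rescaled FPKM in knockout and 7.93 in control cells (log2 ratio 1.56). The ligand gene Wnt5a was level, with 70.7 rescaled FPKM in knockout and 73.5 in control cells (log2 ratio -0.05). Of the 31 receptor and inhibitor genes, 3 (9.68%) were called higher and 2 (6.45%) lower, both under the shares over all genes. Only 11 had a log2 ratio above 0, and the median was -0.26 (like-length median -0.06). Of the receptors, Fzd6 had 57.6 rescaled FPKM in knockout and 104 in control cells (log2 ratio -0.84). Lrp6 had 184 and 274 (log2 ratio -0.57), while Fzd7 lay the other way, with 327 and 282 (log2 ratio 0.21). Of the secreted antagonists, Sfrp1 had 192 rescaled FPKM in knockout and 62.9 in control cells (log2 ratio 1.59) and Sfrp5 had 31.2 rescaled FPKM in knockout and 2.36 in control cells (log2 ratio 3.26). The other secreted antagonist genes of at least 10 rescaled FPKM were within 2-fold. Wif1 had 259 rescaled FPKM in knockout and 220.3 in control cells (log2 ratio 0.23), Dkk3 had 213 rescaled FPKM in knockout and 154 in control cells (log2 ratio 0.47), Sfrp2 had 55.9 rescaled FPKM in knockout and 48.2 in control cells (log2 ratio 0.21) and Sostdc1, an antagonist of Wnt and BMP, had 50.02 rescaled FPKM in knockout and 98.4 in control cells (log2 ratio -0.96). Of the 17 target genes, 1 was called higher and 1 lower. The feedback target Axin2 had 19.9 rescaled FPKM in knockout and 9.19 in control cells (log2 ratio 1.04), Myc had 573 rescaled FPKM in knockout and 310.3 in control cells (log2 ratio 0.88) and the hyaluronan receptor gene Cd44 had 213 rescaled FPKM in knockout and 347 in control cells (log2 ratio -0.70).

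ErbB ligand genes differed in both directions, with 4 of 14 ligand and receptor genes called higher and 1 lower. Nrg1, the neuregulin through which basal cells signal to luminal ErbB receptors, had 125 rescaled FPKM in knockout and 52.1 in control cells (log2 ratio 1.25). Of the EGF receptor ligands, Hbegf had 249 rescaled FPKM in knockout and 137 in control cells (log2 ratio 0.86) and Ereg had 41.5 rescaled FPKM in knockout and 104 in control cells (log2 ratio -1.31). Areg, the ligand of hormone-driven ductal growth, had 29.9 rescaled FPKM in knockout and 54.4 in control cells (log2 ratio -0.84). Btc had 11.3 rescaled FPKM in knockout and 0.267 in control cells (log2 ratio 3.28), and Nrg4 had 12.6 rescaled FPKM in knockout cells and was listed at 0 in control cells. The receptor gene Egfr was level, with 128 rescaled FPKM in knockout and 139 in control cells (log2 ratio -0.12).

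Among TGF-beta and BMP genes, 4 of 32 (12.5%) were called higher and 2 (6.25%) lower, both under the shares over all genes, with a median log2 ratio of -0.07 (like-length median -0.06). The 4 higher genes were Id1, Id3, Smad6 and the BMP antagonist gene Nog, and the 2 lower genes were under 10 rescaled FPKM. Id1 had 92.5 rescaled FPKM in knockout and 10.1 in control cells (log2 ratio 3.08) and Id3 had 459 rescaled FPKM in knockout and 222 in control cells (log2 ratio 1.05). Members of the same families were near level, Id2 with 209.7 rescaled FPKM in knockout and 228 in control cells (log2 ratio -0.12), Id4 with 265 rescaled FPKM in knockout and 281 in control cells (log2 ratio -0.08) and Smad7 with 287 rescaled FPKM in knockout and 232 in control cells (log2 ratio 0.30). The inhibitory Smad gene Smad6 had 39.8 rescaled FPKM in knockout and 15.9 in control cells (log2 ratio 1.27) and the antagonist gene Nog had 18.4 rescaled FPKM in knockout and 4.60 in control cells (log2 ratio 1.79). The ligand gene Bmp7 lay the other way, with 52.3 rescaled FPKM in knockout and 99.2 in control cells (log2 ratio -0.91), as did the activin antagonist gene Fst, with 1463 rescaled FPKM in knockout and 2388 in control cells (log2 ratio -0.71). Of the growth factor binding proteins beside Igfbp3, the most abundant, Igfbp5, had 4530.1 rescaled FPKM in knockout and 6586 in control cells (log2 ratio -0.54). Igfbp4, Igfbp7 and Igfbp6 lay the other way, with log2 ratios of 0.87, 0.96 and 1.18, and Igfbp2 was near level (log2 ratio 0.12). The Hippo list had 4 of 17 genes (23.5%) called higher and none lower, with a median of -0.08 (like-length median -0.06). The matricellular YAP target gene Cyr61 had 639.9 rescaled FPKM in knockout and 255 in control cells (log2 ratio 1.32), while Ctgf, the most abundant YAP target of the list, was level, with 1161 rescaled FPKM in knockout and 1091 in control cells (log2 ratio 0.09).

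Chemokine and cytokine genes were the list with the most calls by number. Shorter lists of other cell types had larger shares called higher. Among them were pericyte genes (5 of 9), adipocyte genes (4 of 8) and muscle and nerve genes (4 of 8), with median log2 ratios of 1.10, 0.99 and 0.76. The like-length medians were -0.06, 0.02 and 0.02. Over members above 0 in both libraries, the list medians were 0.83, 1.38 and 0.07, so that of muscle and nerve genes rested on zeros. Of 33 chemokine and cytokine genes, 13 (39.4%) were called higher and 5 (15.2%) lower, against 16.9% and 14.9% over all genes. Their median log2 ratio was 0.61 (like-length median 0.09). The neutrophil chemokine gene Cxcl1 was the most abundant of the called genes, with 1101 rescaled FPKM in knockout and 370.0 in control cells (log2 ratio 1.57). The monocyte chemokine genes Ccl2 and Ccl7 lay the same way, Ccl2 with 455 rescaled FPKM in knockout and 187 in control cells (log2 ratio 1.28) and Ccl7 with 170.2 rescaled FPKM in knockout and 51.7 in control cells (log2 ratio 1.70). Cxcl10, an interferon-induced attractant of T cells, had 112 rescaled FPKM in knockout and 35.6 in control cells (log2 ratio 1.63). The interleukin gene Il6 had 124 rescaled FPKM in knockout and 43.3 in control cells (log2 ratio 1.499) and the prostaglandin synthase gene Ptgs2 had 153 rescaled FPKM in knockout and 51.4 in control cells (log2 ratio 1.55). Il33, an alarmin that epithelial and stromal cells hold in the nucleus, had 54.8 rescaled FPKM in knockout and 16.8 in control cells (log2 ratio 1.65), and Il18 had 22.1 rescaled FPKM in knockout and 3.28 in control cells (log2 ratio 2.43). Tnfsf11, which encodes RANKL, had 19.3 rescaled FPKM in knockout and 5.92 in control cells (log2 ratio 1.56).

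Other cytokine genes were level or lower. Cxcl14, the most abundant of the list in both libraries, had 2044 rescaled FPKM in knockout and 1888 in control cells (log2 ratio 0.11). The macrophage growth factor gene Csf1 had 361 rescaled FPKM in knockout and 416 in control cells (log2 ratio -0.20). Lif and Il11 lay near them, Lif with 40.8 rescaled FPKM in knockout and 48.8 in control cells (log2 ratio -0.25) and Il11 with 52.5 rescaled FPKM in knockout and 48.2 in control cells (log2 ratio 0.12). The 5 called lower were Il17b, Tnfsf10, Tnf, Cxcl3 and Csf2. Il17b had 82.3 rescaled FPKM in knockout and 184 in control cells (log2 ratio -1.15) and Tnfsf10, which encodes the death ligand TRAIL, had 8.18 rescaled FPKM in knockout and 27.9 in control cells (log2 ratio -1.65). The other 3 were under 10 rescaled FPKM in both libraries: Tnf had 2.53 rescaled FPKM in knockout and 8.20 in control cells (log2 ratio -1.38), Csf2 had 0.178 rescaled FPKM in knockout and 2.53 in control cells (log2 ratio -1.58), and the neutrophil chemokine gene Cxcl3, which lay opposite to Cxcl1, had 0.273 rescaled FPKM in knockout and 3.13 in control cells (log2 ratio -1.70). Several of the higher genes, among them Ccl2, Ccl7 and Il6, are known products of fibroblasts as well, and the fibroblast marker sum was 1412 in knockout and 857 rescaled FPKM in control cells. The macrophage marker sum was 87.9 in knockout and 55.4 in control cells. The part of either in these differences was not tested.

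Many cytokine genes carry binding sites for NF-kappa-B beside their start, and the promoters of the called members were read for that factor's consensus sequence. Of the 12 members of at least 10 rescaled FPKM past 2-fold, 8 had a promoter entry in RefSeq (GRCm38.p6). The consensus, searched on both strands of the 250 bases before the start, occurred in 3 of the 8, Cxcl1, Cxcl10 and Il6. The 8 were picked by their call and all but Tnfsf10 were higher, so the direction of the 3 cannot be read against the consensus. Of all 32851 promoters, 7.25% held the consensus. The AP-1 letters TGANTCA, also searched on both strands, occurred in 2 of the 8, Cxcl10 and Il6, and in 6.75% of all promoters. A match is a description of the sequence and not a measured site. The 3 windows are shown with the NF-kappa-B consensus in capitals, since they belong to 3 of the higher cytokine genes. They are chr5:90890995-90891244 (plus strand) for Cxcl1, chr5:92348890-92349139 (minus strand) for Cxcl10 and chr5:30012864-30013113 (plus strand) for Il6. Matches begin 71 bases before the start of Cxcl1, 159 and 104 bases before that of Cxcl10 and 44 bases before that of Il6, and a run of capitals over 10 bases holds overlapping matches.
Cxcl1: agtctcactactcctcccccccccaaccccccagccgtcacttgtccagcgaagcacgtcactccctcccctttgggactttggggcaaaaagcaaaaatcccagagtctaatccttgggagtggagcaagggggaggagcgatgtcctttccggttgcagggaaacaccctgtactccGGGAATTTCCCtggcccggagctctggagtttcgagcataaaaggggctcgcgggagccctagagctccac
Cxcl10: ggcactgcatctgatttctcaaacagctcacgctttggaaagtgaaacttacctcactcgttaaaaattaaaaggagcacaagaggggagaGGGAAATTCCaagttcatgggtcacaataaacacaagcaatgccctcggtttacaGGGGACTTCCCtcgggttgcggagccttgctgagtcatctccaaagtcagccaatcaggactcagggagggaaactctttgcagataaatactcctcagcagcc
Il6: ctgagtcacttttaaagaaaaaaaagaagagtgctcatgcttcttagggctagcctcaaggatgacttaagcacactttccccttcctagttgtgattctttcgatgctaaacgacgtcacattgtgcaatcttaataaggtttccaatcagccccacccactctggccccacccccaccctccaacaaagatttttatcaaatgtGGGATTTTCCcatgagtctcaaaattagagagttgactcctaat

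Genes of the NF-kappa-B and STAT pathways and their feedback inhibitors had a smaller median. Of 24 genes, 4 (16.7%) were called higher and 2 (8.33%) lower, with a median log2 ratio of 0.35 (like-length median 0.02). Nfkbia, the inhibitor that NF-kappa-B induces, had 481 rescaled FPKM in knockout and 248 in control cells (log2 ratio 0.95), while the factor gene Rela was level, with 131 rescaled FPKM in knockout and 122 in control cells (log2 ratio 0.11). The STAT3 feedback gene Socs3 had 549.9 rescaled FPKM in knockout and 263 in control cells (log2 ratio 1.06) and Stat3 itself had 370.5 rescaled FPKM in knockout and 517 in control cells (log2 ratio -0.48). The STAT5 feedback gene Cish lay the other way, with 52.1 rescaled FPKM in knockout and 108 in control cells (log2 ratio -1.03), as did Socs1, with 19.98 rescaled FPKM in knockout and 43.5 in control cells (log2 ratio -1.08).

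Immediate early genes, which tissue dissociation also induces, were high in both libraries. Of 29 genes, 3 (10.3%) were called higher and none lower, with a median log2 ratio of 0.38 (like-length median 0.02). Fos had 3758 rescaled FPKM in knockout and 2242 in control cells (log2 ratio 0.74) and Fosb had 3251 rescaled FPKM in knockout and 1695 in control cells (log2 ratio 0.94). Nr4a1 had 732 rescaled FPKM in knockout and 309.8 in control cells (log2 ratio 1.24). Heat shock genes, whose median was 0.27 (like-length median 0.02), gave no call in either direction among 17 genes; Hspa8 had 3207 rescaled FPKM in knockout and 2634 in control cells (log2 ratio 0.28). The part of dissociation in the cytokine differences was not tested.

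Interferon-response genes differed in both directions. Of 28 genes, 8 (28.6%) were called higher and 5 (17.9%) lower, with a median log2 ratio of 0.43 (like-length median 0.02). The most abundant, Ifitm3, had 1579.5 rescaled FPKM in knockout and 962 in control cells (log2 ratio 0.72). Usp18, a feedback inhibitor of interferon signalling, had 29.6 rescaled FPKM in knockout and 9.17 in control cells (log2 ratio 1.59). The nucleic acid sensor gene Zbp1 had 25.05 rescaled FPKM in knockout and 0.698 in control cells (log2 ratio 3.94). Isg15, a canonical member, was lower, with 0.526 rescaled FPKM in knockout and 8.89 in control cells (log2 ratio -2.70).

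Cell cycle genes were at low levels, and the lists of the 2 phases had medians of opposite sign. Of 24 genes of the G1 to S transition, 5 (20.8%) were called higher and 2 (8.33%) lower, with a median log2 ratio of 0.48 (like-length median 0.02). The replication helicase genes Mcm3 and Mcm6 were among them, Mcm3 with 39.1 rescaled FPKM in knockout and 4.90 in control cells (log2 ratio 2.77) and Mcm6 with 44.7 rescaled FPKM in knockout and 20.8 in control cells (log2 ratio 1.07). Of 28 genes of G2 and mitosis, 4 (14.3%) were called higher and 8 (28.6%) lower, with a median of -0.24 (like-length median 0.02). The centromere histone gene Cenpa had 6.95 rescaled FPKM in knockout and 34.7 in control cells (log2 ratio -2.17). The proliferation marker Mki67 was level, with 23.1 rescaled FPKM in knockout and 23.1 in control cells, and Top2a had 28.8 rescaled FPKM in knockout and 27.4 in control cells (log2 ratio 0.07).

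The nuclear noncoding RNAs Malat1, Neat1 and Xist were called higher in the knockout library. Malat1 had 5609 rescaled FPKM in knockout and 1509 in control cells (log2 ratio 1.89), which placed it among the 10 highest genes there. Neat1, the scaffold of nuclear paraspeckles, had 416 rescaled FPKM in knockout and 45.8 in control cells (log2 ratio 3.16). Xist, which coats the inactive X chromosome in female cells, had 1478 rescaled FPKM in knockout and 623 in control cells (log2 ratio 1.24). Not all abundant noncoding RNAs were higher: Rmrp had 3379 rescaled FPKM in knockout and 3914 in control cells (log2 ratio -0.21). The 19 other members of the splicing and nuclear RNA list gave no call. The splicing factor gene Srsf1 had 189.7 rescaled FPKM in knockout and 259 in control cells (log2 ratio -0.45) and Srsf7 had 318 rescaled FPKM in knockout and 163 in control cells (log2 ratio 0.96). Genes of the cytosolic ribosome and of the respiratory chain are short. The 46 ribosomal protein genes had a median log2 ratio of 0.25 and the 36 nuclear-encoded respiratory genes 0.38, both against 0.09 over genes of like length. Genes of the mitochondrial genome have no entry in the values used here.

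**Figure D5:**
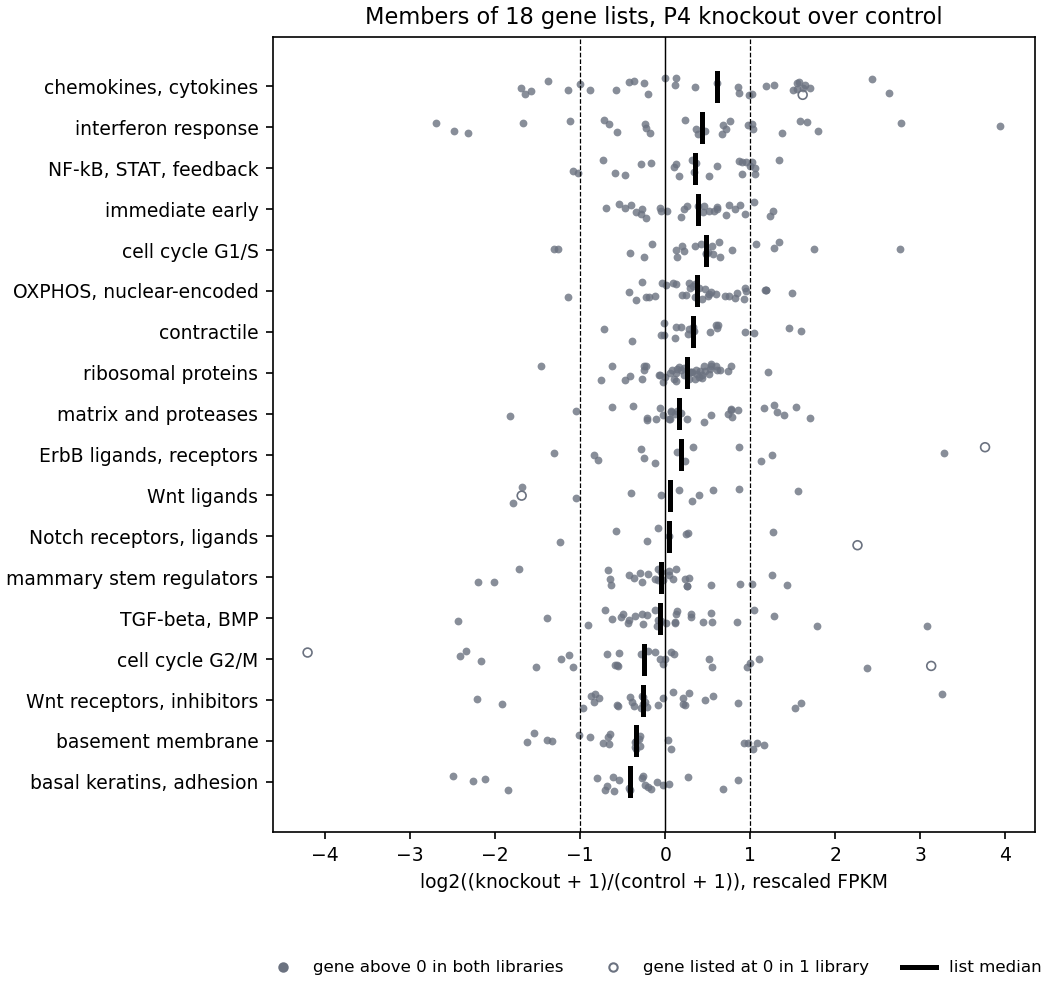
Log2 ratio of knockout over control for each member of 18 gene lists of at least 1 rescaled FPKM in the higher library (filled points, above 0 in both libraries; open points, listed at 0 in 1 library), with the list median as a bar and 2-fold as dashed lines. The medians of these 18 lists run from 0.61 for chemokines and cytokines to -0.41 for basal keratins and adhesion, and single members of most lists lie past 2-fold on both sides. Lists of other cell types are not drawn.

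The same luminal deletion was also profiled in sorted mammary macrophages, with 2 libraries of each genotype, in CPM (reads scaled to library depth), computed without small noncoding genes. Those macrophages share no library with the basal cells, and the values are set side by side with no test. The control macrophage libraries themselves lay at least 2-fold apart for 58.3% of genes. Over all 11798 genes of at least 10 CPM in 1 of the 4 libraries, both knockout libraries lay above both control libraries for 19.4% and below both for 10.9%. Of 15 chemokine and cytokine genes of that level, 4 (26.7%) lay above and 1 (6.67%) below. Of these 5, 3 had the direction seen in P4 and 2 the opposite one. The 2 are Csf1 and Cxcl16, and Cxcl16 was level in P4 (log2 ratio -0.0046). Of all genes without overlap between genotypes (2285 above and 1281 below), 1273 were counted with the P4 direction and 1471 with the opposite one. The rest were counted in neither direction. Cxcl10 had 51.4 and 56.9 CPM in the knockout and 32.7 and 33.8 CPM in the control macrophages, which do not overlap. Csf1 had 84.5 and 65.7 CPM in the knockout and 13.7 and 44.3 CPM in the control macrophages, which do not overlap either and lie opposite to its log2 ratio of -0.20 in P4. Ccl2 had 99.00 and 181 CPM in the knockout and 80.5 and 207 CPM in the control macrophages, which overlap. Il6 had 26.3 and 19.5 CPM in the knockout and 8.12 and 19.1 CPM in the control macrophages. Both knockout values of Il6 lay above both control values, by little in repeat 2. Cxcl1 had 64.5 and 78.3 CPM in the knockout and 65.00 and 28.5 CPM in the control macrophages and Ptgs2 had 459 and 557 CPM in the knockout and 539.7 and 461 CPM in the control macrophages, and both overlapped. Neat1 had 2773 and 3306 CPM in the knockout and 1577 and 3016 CPM in the control macrophages, which overlap too, while its level in P4 basal cells was 416 in knockout and 45.8 rescaled FPKM in control cells.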

How the data were processed

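RNA of sorted P4 cells was sequenced in 1 library per genotype. Per the labels, RNA came from RNeasy columns, ribosomal RNA was depleted (QIAseq FastSelect) and the PrepX protocol made the libraries. The submitters' processing notes name STAR 2.7.8a, Partek and hg38, although the coordinates are mouse. Of 21237 genes matched by symbol, 69.0% share a start or end with RefSeq GRCm38.p6, whose build is used here. The authors deposited P4 values as FPKM, 1 entry per gene in a tracking-file layout, and macrophage values on a log2 scale, read from the values as log2(CPM + 0.0001). The counting tool is not given in the sources used here. No columns of per-sample values were left unmapped (0).

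Of 27040 entries, 429 had no gene name, 805 were small noncoding (Snor, Rnu, Rn7s, Scarna, Rny and Mir prefixes) and 27 shared a symbol with a higher entry. The rest were rescaled to a sum of 1000000, factors 2.92 (knockout) and 2.95 (control). The log2 ratio took a prior of 1. Calls over all genes needed at least 10 in the higher library, and list members at least 1. Depth was estimated from the lowest value steps, 47 genes in the knockout and 44 in the control library, and is approximate. Differences near that step are not detectable at this depth.

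No test was run. Members and the 46 gene lists (1047 memberships, 1025 matched, 12 through older symbols, 1 of them a second name of a gene in its list and dropped) were chosen with earlier results of these data known. Named genes were the CXCL12 axis and sort markers, the 15 highest and 15 lowest log2 ratios (leaving out unnamed models, LOC and other accession-like symbols, antisense genes and copies), up to 4 members at each end of a list plus any past 2-fold, the highest-level markers and the 10 highest genes of each library; level or role members (for example Lgr5, Dll1, Fos) and the 25 at each end among genes of at least 100 were added after their values were seen. The ratio code was checked on planted changes. Transcript lengths are GENCODE M21. Alternatives covered prior, scaling, filters and fold. Tools were Python 3.11.15, pandas 2.3.3, numpy 2.4.6 and matplotlib 3.10.9.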

Additional observations from a re-analysis of the deposited data

Results flagged for a closer look

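Of the 50 named genes of at least 100 rescaled FPKM in P4, 46 are in the macrophage table and 39 reached 10 CPM in at least 1 of the 4 macrophage libraries of the K8-Cre line. Both knockout libraries lay above both control libraries for 4 of the 39 (10.3%) and below both for 6 (15.4%), against 19.4% and 10.9% over all genes of that level. Of all genes without overlap between genotypes (2285 above and 1281 below), 1273 were counted with the direction seen in P4 and 1471 with the opposite one. The rest were counted in neither direction. Of these 10 named genes, 4 had the direction seen in P4 and 6 the opposite one, and the 6 are given here. The difference between cell types was not tested. Krt15 and Reln also lay opposite, under 10 CPM in every macrophage library, and are not among the 39. The log2 ratio in P4 was 1.72 for the nucleoside diphosphate kinase gene Nme2, which had 34.97 and 25.3 CPM in the knockout and 71.2 and 37.6 CPM in the control macrophages. It was 1.67 for Rpph1, the RNA of ribonuclease P, which had 103 and 207 CPM in the knockout and 358 and 286 CPM in the control macrophages. The complement gene C4b stood at 1.66 in P4 and had 153 and 297 CPM in the knockout and 319 and 398 CPM in the control macrophages. Rabac1, a vesicle transport gene, stood at 1.62 in P4 and had 25.1 and 26.9 CPM in the knockout and 132 and 36.6 CPM in the control macrophages. In the other direction, Efhd2 stood at -1.98 in P4 and had 298 and 280.4 CPM in the knockout and 278 and 191 CPM in the control macrophages. The sialyltransferase gene St3gal1 stood at -1.39 in P4 and had 247 and 217 CPM in the knockout and 213 and 207 CPM in the control macrophages, so its macrophage groups lay within a narrow range.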

How the results depend on the processing

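The main counts were 1305 genes higher and 871 lower, the log2 ratio of Cxcl12 0.36 and of Cxcr4 -0.94, and 8 of 45 lists had a median at least 0.5 from 0. Keeping small noncoding genes in the scaling gave 203 higher and 8 lower, 1.27 for Cxcl12, 0.0339 for Cxcr4 and 37 lists. Deposited FPKM without rescaling gave 508 and 315. In both settings the minimum was applied on the changed scale, where fewer genes reach it, so the counts are not over the same genes. No filter, or a minimum of 1, gave 2454 and 2163 (3 lists with no filter), a minimum of 30 gave 533 and 361, 1.5-fold gave 2249 and 1855 and 4-fold gave 452 and 304. A prior of 5 left 4 lists. Of settings chosen after seeing the data, transcripts of at least 2 kb gave 664 and 506, and genes of at least 100 above 0 in both gave 104 and 85. Centring, upper-quartile scaling, a prior of 0.1, summed entries, leaving out spans under 200 bases and requiring values above 0 in both (1169 and 772) stayed within 1.5 times. Of 577 list medians under alternatives, 35 moved by over 1.5 times, 24 of them with small noncoding genes kept, and 29 changed sign, 14 of them with small noncoding genes kept, where basal keratins and adhesion stood at 0.62, basement membrane at 0.32 and Wnt receptors and inhibitors at 0.53. None was past 2-fold in the main values. No paired analysis was possible because each genotype has 1 library. Depth limits genes of low level and short length, and age, mouse and day cannot be told apart from genotype.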

Other observations

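Groups not described above gave values of the following kind. Among glycolysis and hypoxia genes, 2 of 30 were called higher and 2 lower, with a median log2 ratio of -0.01 (like-length median 0.02). Ndrg1, a stress-induced gene, had 327 rescaled FPKM in knockout and 889 in control cells (log2 ratio -1.44), and the prolyl hydroxylase gene Egln3 had 26.1 rescaled FPKM in knockout and 62.9 in control cells (log2 ratio -1.24). The carbonic anhydrase gene Car9 lay the other way, with 21.3 rescaled FPKM in knockout and 6.24 in control cells (log2 ratio 1.62), as did the vasodilator gene Adm, with 185 rescaled FPKM in knockout and 73.7 in control cells (log2 ratio 1.31). Known hypoxia-responsive genes thus stood on both sides.

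Of 26 sterol synthesis genes, 4 were called higher and 1 lower. Lss, which closes the sterol ring, had 19.1 rescaled FPKM in knockout and 4.16 in control cells (log2 ratio 1.96). Of 17 histone genes, 2 were called higher and 4 lower, with near-identical copies that counting can split: Hist1h4c had 68.7 rescaled FPKM in knockout and 1.24 in control cells (log2 ratio 4.96) and Hist1h4d was listed at 0 in the knockout library and had 37.5 rescaled FPKM in the control library.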
